A study of Homo sapiens with 10 samples.

Results

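The genes described here make or load the class I molecules of the major histocompatibility complex (MHC). The 9 genes are HLA-B, HLA-C and HLA-E, which encode class I heavy chains, B2M, TAP1, TAP2, TAPBP, ERAP1 and CALR. Every probe set annotated with one of these symbols was taken, which gave 29 of the 54630 probe sets in the table. None of the 29 named more than 1 gene. Of the 10 HLA probe sets, 9 carry the suffix _x_at, by which the array maker marks probe sets whose probes may also bind other transcripts, so heavy chain readings may not come from 1 gene.

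Cultured K562 cells and the microvesicles they released were measured on 5 arrays each. K562 is a human chronic myeloid leukaemia line with erythroid features that carries the BCR-ABL1 fusion. Microvesicles are small vesicles pinched off from the cell membrane. Trizol was used to extract total RNA from 5 separate experiments, with no treatment in either group, and every sample comes from this 1 cell line. The labels do not say that same-numbered preparations share a culture, and p-values therefore cover only how much preparations varied, which may be technical.

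A class I molecule is a heavy chain bound to beta-2 microglobulin, the light chain, and to a short peptide. Peptides cut from cytosolic proteins by the proteasome are pumped into the endoplasmic reticulum by the TAP1-TAP2 transporter and trimmed there by the aminopeptidase ERAP1. Tapasin (TAPBP) holds the empty class I molecule at the transporter, together with the chaperone calreticulin (CALR) and the disulfide isomerase PDIA3, until a peptide fits. Interferon gamma raises the transcription of most of these genes. K562 cells are known for showing very little class I at their surface and are for that reason a common target in tests of natural killer cells.

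Values are log2 expression values after RMA, on which a difference of 1 is a doubling, and all differences are microvesicles minus cells. Over all arrays the median of all values was 4.19, and values are not known to exceed background where they lie below it, since the table holds no detection call. Array medians ran from 4.08 to 4.12 in cells and from 4.22 to 4.28 in microvesicles. Across probe sets, which are not independent replicates, Pearson's r was at least 0.990 for any pair of cell arrays and at least 0.911 for any pair of microvesicle arrays, while pairs with 1 array of each kind reached 0.851 to 0.906. Both ends of ACTB were read by control probe sets. Its 3′ end exceeded the 5′ end by 2.39 ± 0.15 in cells and by 3.12 ± 0.34 in microvesicles. The groups of 5 differed (SD given, 2-sided exact permutation p = 0.00794, the smallest possible with 5 against 5, adjusted p = 0.0119 over 3 array measures). For GAPDH the excess was 0.45 ± 0.064 against 0.62 ± 0.13 (SD given, n = 5 per group, p = 0.0159 by exact permutation, unaltered by adjustment). Of 8 erythroid marker genes measured, each had a mean in cells above the array median, and the mean of the list was 8.57 to 8.95 in cells and 7.80 to 8.64 in microvesicles, with 3 genes lower (37.5%) and 1 higher (12.5%), against 31.2% and 35.5% of all 19775 genes. The part of these array differences in the results that follow was not tested.

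In microvesicles the light chain B2M, calreticulin and the brightest probe sets of ERAP1 and TAPBP were lower than in cells, the heavy chains HLA-B and HLA-C were slightly higher in 5 of 7 probe sets, and HLA-E and TAP1 did not pass. Of the 29 probe sets, 9 were lower (31.0%) and 7 higher (24.1%) at a limma adjusted p under 0.05, so that 16 passed and 13 did not. Over all 54613 probe sets tested, 27% were lower and 35.4% higher, 62.4% in either direction. The share of lower members was near this background in the deposited values. It was 31.0% against 21.6% of all after loess, 27.6% against 18.5% after a second quantile normalization and 34.5% against 30.2% with median centring. How the share of higher members stood to the background turned with the scaling. After loess 6 of the 29 were higher (20.7%) against 18.1% of all, after a second quantile normalization 6 (20.7%) against 18.8%, and with median centring 2 (6.9%) against 23.9%. The groups did not overlap in 12 of the 29 probe sets (41.4%), against 45.9% of all probe sets. The count of 7 higher probe sets fell to 4 without cells replicate 1 and to 3 without cells replicate 2. The median change was 0.15 over the 29 and 0.27 over all probe sets. The arrays read RNA of whole preparations, so fewer vesicles with a transcript and less of it per vesicle cannot be told apart. Values are relative to the other RNA on an array and give no absolute amount. A shift in that other RNA cannot be told apart from these readings either. Microvesicle arrays varied more than cell arrays in 28 of the 29 probe sets, with a median SD of 0.47 against 0.12, and this held for 94% of all probe sets.

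**Figure D1:**
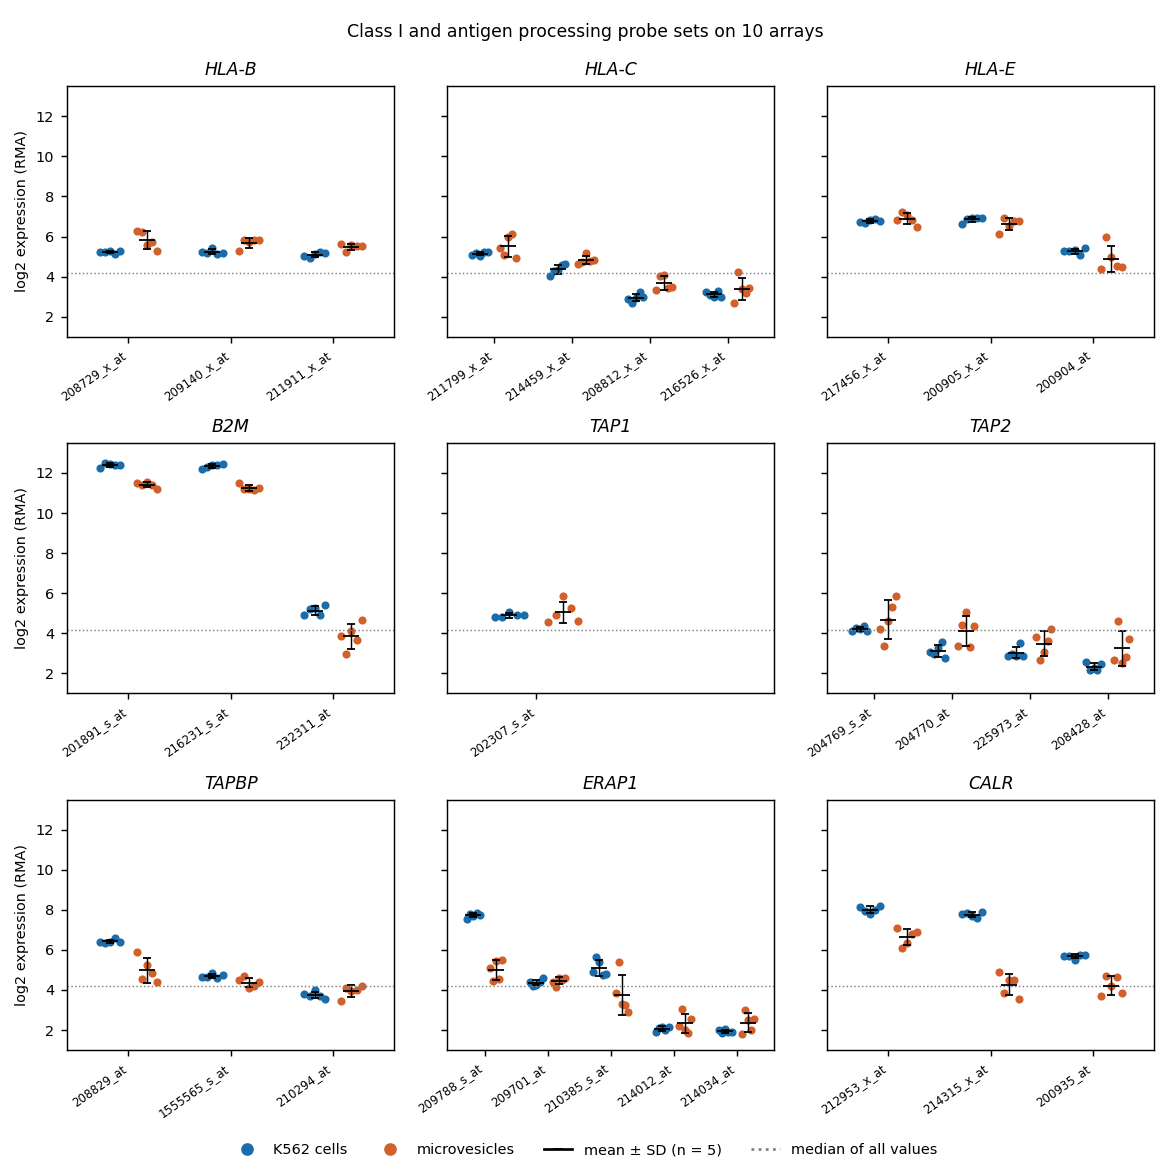
Log2 expression (RMA, vertical axis) of each of the 29 probe sets, 1 panel per gene, in K562 cells (blue) and microvesicles (orange), with 1 point per array, mean and SD (n = 5 each) in black and the median of all values dotted. The bright B2M probe sets and all CALR probe sets lie lower in every microvesicle array than in any cell array, while those of HLA-B and HLA-C lie slightly higher or overlap.

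B2M, the light chain shared by all class I molecules, was close to the top of the signal range in cells and about 2-fold lower in microvesicles. Probe set 201891_s_at read 12.26, 12.49, 12.46, 12.39 and 12.39 in cells 1 to 5 and 11.50, 11.42, 11.54, 11.41 and 11.23 in microvesicles 1 to 5. Every microvesicle array lay below every cell array. The change was -0.98 ± 0.15 (SE, 1.97-fold lower, limma adjusted p = 0.000104). Probe set 216231_s_at read 12.20, 12.28, 12.38, 12.40 and 12.44 in cells and 11.48, 11.19, 11.18, 11.15 and 11.26 in microvesicles, a change of -1.09 ± 0.15 (2.13-fold lower, limma adjusted p = 4.53e-05). The third probe set, 232311_at, was at 5.12 ± 0.22 in cells and 3.86 ± 0.62 in microvesicles (mean ± SD, n = 5 each), and changed by -1.27 ± 0.26 (limma adjusted p = 0.00112), with a microvesicle mean below the array median. All 3 B2M probe sets kept direction and call under every alternative that held them, and after loess normalization by level the bright ones stood at -0.71 and -0.81. Among the 569 probe sets with a mean above 11 the median change was -0.20, with quartiles of -0.48 and 0.0072, and both bright B2M probe sets lay below that lower quartile.

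HLA-B, one of the classical class I heavy chains that present peptides to T cells, was higher in microvesicles in all 3 of its probe sets, by 0.41 to 0.60. Probe set 208729_x_at read 5.20, 5.22, 5.28, 5.15 and 5.28 in cells and 6.28, 6.25, 5.58, 5.71 and 5.29 in microvesicles. The groups did not overlap, but microvesicles 5 lay only just above the highest cell array. The change was 0.60 ± 0.20 (1.51-fold higher, limma adjusted p = 0.0203). Probe set 209140_x_at was 5.24 ± 0.12 in cells and 5.69 ± 0.24 in microvesicles (mean ± SD, n = 5 each), with overlapping groups, and rose by 0.45 ± 0.17 (limma adjusted p = 0.0301). Probe set 211911_x_at was 5.09 ± 0.12 and 5.49 ± 0.16 (mean ± SD, n = 5 each), with groups that did not overlap, and rose by 0.41 ± 0.15 (limma adjusted p = 0.0332). These calls depended on the scaling. With arrays centred on their median the changes were 0.44, 0.29 and 0.25 and none passed (adjusted p = 0.0828, 0.145 and 0.186), whereas after loess they were 0.98, 0.80 and 0.65 and all passed. Leaving out cells replicate 1, 2, 4 or 5 ended the call of 209140_x_at, at adjusted p = 0.0591, 0.0663, 0.0686 and 0.0652 by limma, and leaving out cells replicate 1, 2, 3 or 5 did so for 211911_x_at, at 0.0744, 0.0925, 0.0629 and 0.0548. Probe set 208729_x_at passed with any 1 array left out. Probe sets with a mean of 5 to 6 had a median change of -0.43, with quartiles of -1.36 and 0.50.

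HLA-C, a classical heavy chain that is also read by inhibitory receptors of natural killer cells, was higher in 2 of 4 probe sets. Probe set 214459_x_at read 4.03, 4.28, 4.31, 4.56 and 4.61 in cells and 4.61, 4.73, 5.16, 4.77 and 4.82 in microvesicles. The groups did not overlap, though cells 5 and microvesicles 1 were almost equal, and the change was 0.46 ± 0.17 (limma adjusted p = 0.0331). Probe set 208812_x_at was 2.95 ± 0.19 in cells and 3.67 ± 0.36 in microvesicles (mean ± SD, n = 5 each), below the array median in both groups, and changed by 0.72 ± 0.19 (limma adjusted p = 0.00605). After loess neither passed (0.35 and 0.26). The call of 214459_x_at was also lost without cells replicate 1, 2 or 3 or microvesicles replicate 3, at limma adjusted p = 0.0976, 0.0742, 0.0708 and 0.0707. The probe set with the highest values, 211799_x_at, was 5.14 ± 0.085 and 5.50 ± 0.54 (mean ± SD, n = 5 each), a difference of 0.36 ± 0.23 with a 95% interval of -0.14 to 0.86 (limma adjusted p = 0.184). It passed after loess, at 0.62 (adjusted p = 0.034). The fourth, 216526_x_at, differed by 0.27 ± 0.24 (limma adjusted p = 0.336) and by -0.21 after loess.

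HLA-E, a non-classical heavy chain whose complex with leader peptides of other class I chains is the ligand of the inhibitory receptor NKG2A, did not pass in any of its 3 probe sets. Probe set 217456_x_at read 6.72, 6.67, 6.82, 6.87 and 6.79 in cells and 6.82, 7.22, 7.09, 6.81 and 6.48 in microvesicles, with overlapping groups. The difference was 0.11 ± 0.17, with a 95% interval of -0.25 to 0.48 (limma adjusted p = 0.576). Probe set 200905_x_at differed by -0.22 ± 0.18 (95% interval -0.61 to 0.16, limma adjusted p = 0.278). All probe sets with a mean of 6 to 7 had a median change of -1.0. After loess both probe sets were higher in microvesicles and passed, at 0.97 and 0.62 (adjusted p = 0.000436 and 0.0261), so the direction of 200905_x_at turned with the scaling. The only HLA-E probe set without the _x_at suffix, 200904_at, was 5.26 ± 0.13 in cells and 4.86 ± 0.65 in microvesicles (mean ± SD, n = 5 each). Its difference was -0.40 ± 0.26 (95% interval -0.97 to 0.16, limma adjusted p = 0.189), and microvesicles 2, at 5.95, lay above all cell arrays while the other microvesicle arrays lay between 4.40 and 4.96. Without microvesicles replicate 2 it passed as lower, at -0.68 (adjusted p = 0.00465).

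Lists of markers of antigen-presenting cells and of leukocytes were read as well. Of 10 genes of MHC class II and antigen-presenting cells, 7 were higher in microvesicles by limma and the other 3 did not pass, where 35.5% of all genes were higher. Dim probe sets rose in general, with a median change of 0.48 at a mean of 3 to 4. The mean of this list was 3.61 to 3.77 over the cell arrays and 4.05 to 4.84 over the microvesicle arrays, and 6 of the 10 lay below the array median in cells. Of 7 lymphocyte and leukocyte markers 4 were higher and 2 lower (35.5% and 31.2% over all genes), with list means of 5.45 to 5.85 in cells and 5.30 to 5.55 in microvesicles. The lower ones were PTPRC, at a mean of 9.94 in cells (change -2.99 ± 0.18), and CD3G, at 6.52 (change -1.25 ± 0.28). CD3D, at 8.18 in cells, did not pass. These genes read well above the array median in K562 cells, so here they do not set other cell types apart. Any part of the cells marked by either list in the heavy chain values was not tested.

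The promoters of the heavy and light chain genes are shown because these genes share regulatory elements, and HLA-B and B2M changed in opposite directions in the deposited values. No HLA-B call held with arrays centred on their median, and a link of promoter elements to these changes was not tested. That of TAPBP is shown for its match to the interferon element next to its start. Sequences are the 250 bases before the annotated start in RefSeq, build GRCh38.p14, 5′ to 3′ on the strand of the gene, and 8 of the 9 genes matched, HLA-E not. The arrays name no genome build, so these positions belong to RefSeq alone. Capitals mark exact matches, on either strand, to 3 motifs. The first is a pair of GAAA runs with any 2 bases (NN) between them, a form of the core of the interferon-stimulated response element. The others are CCAAT, the box bound by NF-Y, and TGACG, the core bound by CREB and ATF factors. Matches of 1 motif may overlap each other and then form a single run of capitals.
HLA-B, chr6:31357180-31357429, minus strand: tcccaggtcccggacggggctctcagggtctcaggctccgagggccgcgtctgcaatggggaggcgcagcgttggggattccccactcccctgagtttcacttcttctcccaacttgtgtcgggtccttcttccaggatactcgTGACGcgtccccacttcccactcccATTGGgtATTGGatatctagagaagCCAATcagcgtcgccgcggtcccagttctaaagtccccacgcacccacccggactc
HLA-C, chr6:31272093-31272342, minus strand: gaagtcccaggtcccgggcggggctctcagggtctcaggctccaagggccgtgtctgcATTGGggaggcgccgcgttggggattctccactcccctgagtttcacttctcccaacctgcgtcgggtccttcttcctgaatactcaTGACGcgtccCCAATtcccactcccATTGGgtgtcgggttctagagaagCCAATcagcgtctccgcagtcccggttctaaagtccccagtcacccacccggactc
B2M, chr15:44711267-44711516, plus strand: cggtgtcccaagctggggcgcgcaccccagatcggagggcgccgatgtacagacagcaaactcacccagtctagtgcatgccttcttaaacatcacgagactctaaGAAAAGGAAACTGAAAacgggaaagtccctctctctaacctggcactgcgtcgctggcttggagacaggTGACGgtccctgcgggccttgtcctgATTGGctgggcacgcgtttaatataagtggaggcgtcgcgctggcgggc
TAPBP, chr6:33314079-33314328, minus strand: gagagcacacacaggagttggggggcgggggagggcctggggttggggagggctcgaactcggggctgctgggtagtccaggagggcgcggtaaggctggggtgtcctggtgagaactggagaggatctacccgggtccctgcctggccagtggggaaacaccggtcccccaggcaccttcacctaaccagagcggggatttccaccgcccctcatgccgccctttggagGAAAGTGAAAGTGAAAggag

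HLA-B and HLA-C each held 1 TGACG match, 106 to 102 and 105 to 101 bases before the start, and a CCAAT match 56 to 52 bases before it. B2M held interferon element matches from 144 to 129, a TGACG match from 75 to 71 and a CCAAT match from 49 to 45 bases before its start. In TAPBP the interferon element matches lay 20 to 5 bases before the start. Over the 10 windows of the 8 genes, an exact match to the interferon motif was found in 4 (B2M, TAP1, TAP2 and TAPBP), CCAAT in 6 and TGACG in 4. The shares among all 35116 windows were 3.02%, 32.0% and 21.2%. Variants of the motifs were not searched, so a window without a match, as in HLA-B and HLA-C, may still hold an interferon element. A match is a description of letters and shows no binding.

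The peptide transporter genes TAP1 and TAP2 were dim and none of their 5 probe sets was lower in microvesicles. The 1 TAP1 probe set, 202307_s_at, read 4.79, 4.80, 5.05, 4.93 and 4.89 in cells and 4.57, 4.93, 5.85, 5.25 and 4.60 in microvesicles. Microvesicle arrays lay on both sides of the cell arrays, and the difference was 0.15 ± 0.23, with a 95% interval of -0.34 to 0.64 (limma adjusted p = 0.579). TAP2 was higher in 2 of 4 probe sets. Probe set 204770_at was 3.12 ± 0.30 in cells and 4.10 ± 0.76 in microvesicles (mean ± SD, n = 5 each, change 0.98 ± 0.31, limma adjusted p = 0.0144), and 208428_at was 2.32 ± 0.17 and 3.25 ± 0.88 (mean ± SD, n = 5 each, change 0.93 ± 0.33, limma adjusted p = 0.0256). Both lie below the array median in both groups and overlap between groups. After loess neither passed, at 0.59 and 0.38. All probe sets at the level of 204770_at (a mean of 3 to 4) had a median change of 0.48, and those at the level of 208428_at (up to 3) of 0.58. The call of 208428_at was lost without cells replicate 2 or 4 or microvesicles replicate 5, at limma adjusted p = 0.0536, 0.053 and 0.0577. Probe set 225973_at ran from 2.88 to 3.53 in cells and from 2.64 to 4.22 in microvesicles, with a difference of 0.44 ± 0.27 (limma adjusted p = 0.158) that passed at 0.65 without microvesicles replicate 2 (adjusted p = 0.0289) and was 0.26 without microvesicles replicate 5 (adjusted p = 0.363). The TAP2 probe set with the highest values, 204769_s_at, ran from 4.10 to 4.35 in cells and from 3.38 to 5.86 in microvesicles. It differed by 0.48 ± 0.35 (95% interval -0.28 to 1.24, limma adjusted p = 0.241), and without microvesicles replicate 2, its lowest array, by 0.81 (adjusted p = 0.0241). Without microvesicles replicate 5, its highest array, the difference was 0.19 (adjusted p = 0.592).

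TAPBP, which encodes tapasin, was lower in its brightest probe set. Probe set 208829_at read 6.40, 6.35, 6.41, 6.57 and 6.37 in cells and 5.92, 4.53, 5.25, 4.86 and 4.38 in microvesicles. All microvesicle arrays lay below all cell arrays, with an SD of 0.62 against 0.086. The change was -1.43 ± 0.25 (2.70-fold lower, limma adjusted p = 0.000349) and -0.94 after loess (adjusted p = 0.00602). The dimmer probe sets 1555565_s_at and 210294_at differed by -0.34 ± 0.16 and 0.19 ± 0.18 and did not pass (limma adjusted p = 0.0849 and 0.364). The former passed at -0.42 without microvesicles replicate 2 (adjusted p = 0.0311), at -0.50 with median centring (0.0204) and at -0.47 after loess (0.0386).

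ERAP1, the aminopeptidase that trims peptides to class I length, was 6.62-fold lower in its brightest probe set and differed widely between probe sets. Probe set 209788_s_at read 7.56, 7.79, 7.71, 7.85 and 7.74 in cells and 5.10, 4.42, 5.46, 4.55 and 5.49 in microvesicles. The groups lay far apart, and the change was -2.73 ± 0.22 (limma adjusted p = 6.19e-07), or -1.95 after loess. Probe set 210385_s_at read 4.90, 5.64, 5.38, 4.76 and 4.78 in cells and 3.85, 5.39, 3.29, 3.25 and 2.88 in microvesicles. It changed by -1.36 ± 0.39 (limma adjusted p = 0.00831), with microvesicles 2 inside the range of the cells, and did not pass the exact rank sum test (adjusted p = 0.138). The other 3, 209701_at, 214012_at and 214034_at, did not pass, with differences of 0.092 ± 0.16, 0.26 ± 0.21 and 0.44 ± 0.21 (limma adjusted p = 0.620, 0.288 and 0.0843). Probe set 214034_at passed as higher without microvesicles replicate 1, at 0.58, or 4, at 0.54 (adjusted p = 0.0196 and 0.0445). Both 214012_at and 214034_at lay far below the array median in both groups. The mean over all 5 probe sets changed by -0.66 ± 0.14 (limma adjusted p = 0.00151).

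CALR, which encodes the lectin chaperone calreticulin of the endoplasmic reticulum, was lower in all 3 probe sets, by 1.37 to 3.49 on the log2 scale. Probe set 214315_x_at read 7.77, 7.82, 7.71, 7.58 and 7.88 in cells and 4.89, 3.87, 4.50, 4.52 and 3.56 in microvesicles. Every microvesicle array lay far below every cell array. The change was -3.49 ± 0.23 (limma adjusted p = 1.27e-07), and -2.84 after loess. Its microvesicle mean of 4.27 lay at the array median, so its level there is not known to exceed background and no fold is given. Probe set 212953_x_at read 8.15, 7.94, 7.80, 8.0 and 8.18 in cells and 7.08, 6.11, 6.34, 6.80 and 6.90 in microvesicles, again with no overlap. It changed by -1.37 ± 0.20 (limma adjusted p = 8.21e-05), and did not pass after loess (-0.50, adjusted p = 0.0579) or a second quantile normalization (-0.47, adjusted p = 0.102). Probe set 200935_at was 5.68 ± 0.095 and 4.22 ± 0.46 (mean ± SD, n = 5 each) and changed by -1.46 ± 0.21 (limma adjusted p = 7.31e-05), or -1.42 after loess, with a microvesicle mean just below the array median. The part of the larger 3′ minus 5′ difference of control transcripts in the unequal falls of these probe sets was not tested.

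**Figure D2:**
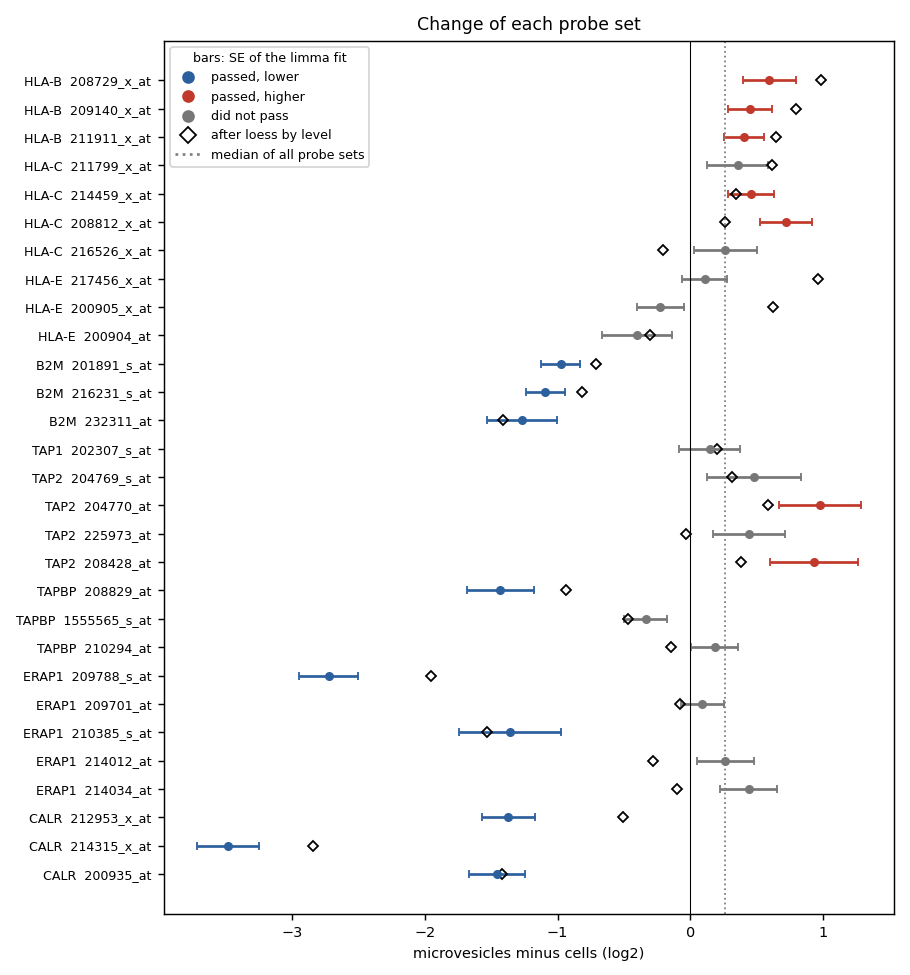
Microvesicles minus cells (log2, horizontal axis) for each of the 29 probe sets, with the SE of the limma fit as bars, coloured by call, the value after loess normalization by level as open diamonds and the median of all probe sets (0.27) dotted. B2M, CALR and the brightest ERAP1 and TAPBP probe sets lie left of 0 under both scalings, and the diamonds of the brighter HLA-B and HLA-E probe sets lie to the right of their filled points.

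The change of a probe set depended on its level over the whole array. Probe sets with a mean of up to 3 had a median change of 0.58, those of 6 to 7 of -1.0 and those above 11 of -0.20. The HLA-B changes of 0.41 to 0.60 were above the median of -0.43 at a mean of 5 to 6, and that of 208729_x_at was above the upper quartile of 0.50. The change of -2.73 in ERAP1 209788_s_at and the -3.49 in CALR 214315_x_at lay below the lower quartile of -1.72 at a mean of 6 to 7. CALR 212953_x_at, at -1.37, lay between the quartiles of -1.65 and -0.36 at a mean of 7 to 8.

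**Figure D3:**
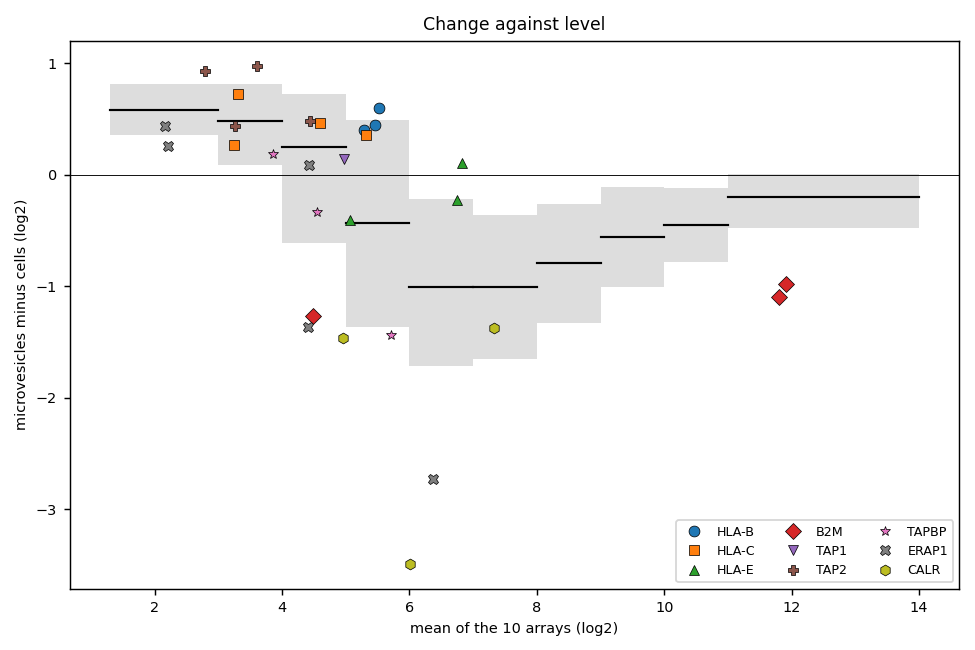
Microvesicles minus cells (log2, vertical axis) against the mean of the 10 arrays (log2, horizontal axis), with the 29 probe sets as symbols by gene and all 54613 probe sets as the median (black line) and quartiles (grey) in bins of level. The HLA-E symbol at 0.11 lies above the grey range at a mean of 6 to 7, the one at -0.22 lies at its upper edge of -0.21, and the bright B2M symbols lie below it at a mean above 11.

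Among the other genes of the pathway, most of those that load or regulate class I were lower in microvesicles in the deposited values. In the immunoproteasome and PA28 list 1 of 4 genes was lower (25%) and 2 were higher (50%). Each gene was read from the probe set with the highest mean that names 1 gene. Of 40 genes measured in 5 lists, 24 were lower (60%) and 2 higher (5%) by limma, against 31.2% and 35.5% of all genes, or 66.6% in either direction. The groups did not overlap in 24 of the 40, against 49.9% of all genes. Their median change was -0.81, against 0.20 over all genes. Many of these genes are bright, and bright probe sets were lower in general. Among those with a mean of at least 6 in the higher group, 21 of 26 pathway genes were lower (80.8%). The share of all probe sets, counted singly rather than 1 per gene, was 67.1%, and the median changes were -1.45 and -0.92. After loess 17 of the 40 were lower (42.5%) and 4 higher (10%), against 21.6% and 18.1% of all probe sets, again counted singly. After a second quantile normalization 14 were lower (35%) and 5 higher (12.5%), against 18.5% and 18.8% of all probe sets.

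Genes that fold glycoproteins or trim peptides in the endoplasmic reticulum and cytosol had 10 falls among 13 measured (76.9%), with a median change of -1.43. The list was bright, with a mean of 8.23 to 8.40 over the cell arrays. Lower shares were 31.2% of all genes and 67.1% of all probe sets with a mean of at least 6 in the higher group. PDIA3, the disulfide isomerase of the peptide loading complex, was 10.71 ± 0.39 in cells and 6.86 ± 0.80 in microvesicles (mean ± SD, n = 5 each), with no overlap. It changed by -3.85 ± 0.33 (14.4-fold lower, limma adjusted p = 1.34e-06), and its 3 probe sets were all lower. The chaperone HSPA5 (BiP) changed by -2.24 ± 0.17 and the intramembrane protease SPPL3 by -2.25 ± 0.26 (limma adjusted p = 6.30e-07 and 1.35e-05), though for SPPL3 3 of 7 probe sets were lower and 1 higher. The mean over all probe sets of a gene changed by -3.07 for PDIA3, -2.11 for HSPA5 and only -0.58 for SPPL3. The lectin chaperone CANX, UGGT1, GANAB, SEC61A1, TPP2, BLMH and NPEPPS were lower too. ERAP2, THOP1 and the tapasin relative TAPBPL did not pass.

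All 4 genes of the interferon gamma receptor list were lower, with a median change of -2.09. Of all genes 31.2% were lower, and of all probe sets with a mean of at least 6 in the higher group 67.1%. IFNGR1, the ligand-binding chain, read 8.39 to 9.11 in cells and 4.47 to 5.88 in microvesicles, a change of -3.33 ± 0.26 (10.1-fold lower, limma adjusted p = 6.30e-07). Of its 3 probe sets 2 were lower and 1 higher, and the mean over them changed by -2.17. The receptor kinases JAK2 and JAK1 changed by -2.51 ± 0.24 and -1.67 ± 0.21 (limma adjusted p = 2.58e-06 and 2.15e-05), and the means over their probe sets by -1.79 and -1.01. The signalling chain IFNGR2 was lower as well. After loess IFNGR1 stood at -2.46, JAK2 at -2.29 and JAK1 at -0.80.

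Of 13 regulators of class I transcription, 8 were lower (61.5%) and the other 5 did not pass, with a median change of -0.83. The share was 31.2% over all genes and 67.1% over all probe sets with a mean of at least 6 in the higher group. RFXAP and RFX5, subunits of the factor that binds the X box of MHC promoters, changed by -2.23 ± 0.33 and -2.06 ± 0.27 (limma adjusted p = 8.45e-05 and 3.45e-05). Only 1 of 2 probe sets of each was lower, and the means over them changed by -1.12 and -1.02. RFXANK, their partner subunit, did not pass. NFYA, a subunit of the factor that binds CCAAT, changed by -1.66 ± 0.47 (limma adjusted p = 0.00773), but 2 of its 6 probe sets were lower and 2 higher, and the mean over them was 0.29 (adjusted p = 0.0683). CREB1, NFYB, RELA, IRF9 and IRF2 were also lower, and NLRC5, the class I transactivator, did not pass and was below the array median in both groups.

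The inducible proteasome subunits PSMB8 and PSMB9, whose genes lie beside TAP1 and TAP2, were higher in microvesicles, with group means below the median of all values. PSMB8 read 2.74, 2.77, 2.99, 2.86 and 3.33 in cells and 4.15, 4.97, 4.77, 3.58 and 2.73 in microvesicles, and its groups overlapped. It changed by 1.10 ± 0.35 and PSMB9 by 0.55 ± 0.19 (limma adjusted p = 0.0139 and 0.0219), and after loess neither passed (0.68 and 0.17). Only 1 of the 40 genes was higher without cells replicate 1, 2 or 5, and 4 were without microvesicles replicate 4. The proteasome activator subunit PSME1 changed by -0.67 ± 0.16 (limma adjusted p = 0.00302), and its difference turned to 0.084 after loess and to 0.11 after a second quantile normalization. PSMB10 did not pass.

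Of 6 other class I and class I-like genes 1 was lower (16.7%, against 31.2% of all genes) and the other 5 did not pass. MR1, which presents vitamin B metabolites to mucosal-associated invariant T cells, changed by -0.75 ± 0.19 (limma adjusted p = 0.00358), with 4 of 6 probe sets lower, and did not pass after loess (-0.48, adjusted p = 0.0641). The heavy chains HLA-F and HLA-G differed by 0.44 ± 0.20 and 0.40 ± 0.19 in the probe sets with the highest values and did not pass (limma adjusted p = 0.0634 and 0.0769), while 2 of 3 and 1 of 4 of their probe sets were higher. HFE, CD1D and FCGRT did not pass either.

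**Figure D4:**
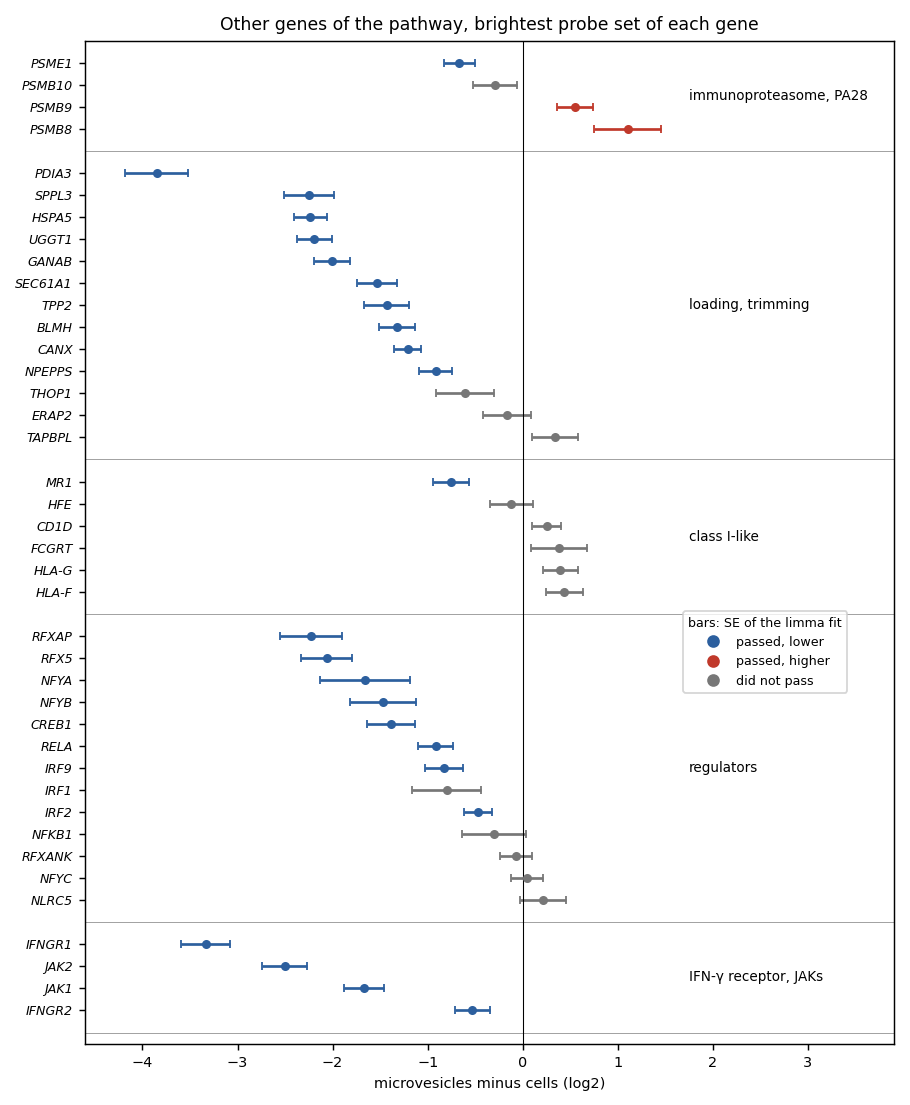
Microvesicles minus cells (log2, horizontal axis) for the 40 other genes of the pathway, grouped by list, with the SE of the limma fit as bars and colour by call. Of the 40 genes 24 lie lower and passed, 2 (PSMB8 and PSMB9) lie higher and passed, and all 4 genes of the interferon gamma receptor list lie lower.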

How the data were processed

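RMA was run by the authors, per the submitters' processing notes, and gave 1 deposited log2 value per probe set and array for 10 arrays. No RMA version or setting is known from the sources used here. As a method, RMA subtracts background, equalises the intensity distributions of the arrays and summarises probes. The deposited array medians were still unequal, at 4.08 to 4.12 in cells and 4.22 to 4.28 in microvesicles. Whether all 10 arrays were equalised together is not known. For arrays, their number limits the precision.

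Symbols came from the platform annotation, updated through the gene number. The 17 control probe sets were left out of the tests. Groups were compared with limma 3.58.1 (lmFit, eBayes, 2-sided) in R 4.3.3, with Benjamini-Hochberg adjustment over all 54613 probe sets or, for lists, all 19775 genes, each read from its brightest probe set naming 1 gene. A call is an adjusted p under 0.05. Changes are ± SE and means ± SD. The fit was tested on simulated data with the same SD in both groups. Microvesicle arrays in fact varied more, so that test does not cover unequal spread. Members, lists and tests were chosen with earlier results of these data known. All 9 genes and every probe set are given, and from each list at most the 3 largest rises and falls that passed. Genes named without a value, HLA-F, HLA-G, class II genes and leukocyte markers fall outside this rule and were named after their values were seen. Lists cover class I-like genes, loading and trimming, the immunoproteasome, regulators, the interferon gamma receptor, and markers. Alternatives covered scaling, filters on dim probe sets, variance models, an exact rank sum test, the unit and each array left out. Loess fitted each array against the mean array (span 0.3).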

Additional observations from a re-analysis of the deposited data

Results flagged for a closer look

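Of 90 groups of 5 arrays examined, 7 held an array that stood apart from the other 4 by Dixon's gap ratio, and chance marks about 1 in 20 groups. Microvesicles 1 was low for HLA-B 209140_x_at, at 5.27 against 5.71 to 5.83 in the other microvesicle arrays. Microvesicles 2 was low for HLA-B 211911_x_at, at 5.22 against 5.53 to 5.61. Cells 1 was low for HLA-E 200905_x_at, at 6.61 against 6.89 to 6.94. Cells 4 was high for TAP2 225973_at, at 3.53 against 2.88 to 2.98, for TAPBP 208829_at, at 6.57 against 6.35 to 6.41, and for JAK1, at 8.36 against 7.86 to 7.89. Microvesicles 5 was low for IFNGR1, at 4.47 against 5.56 to 5.88.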

How the results depend on the processing

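Of the 16 probe sets that passed, 7 kept direction and call in every alternative that held them: the 3 of B2M, CALR 214315_x_at and 200935_at, ERAP1 209788_s_at and TAPBP 208829_at. The count of lower members was 6 to 11 of those held across settings of the probe set fit. The 7 higher members became 4 with the replicate block, 2 with arrays centred on the median, 4 with the filter at the median of all values (21 held), 0 with the filter at a mean of 6 (8 held), and 3 to 9 with 1 array left out (lower members 9 to 11). By gene, 4 were lower and 1 higher with the brightest probe set, and 4 and 3 with the mean of probe sets. Of the 40 pathway genes 24 to 25 were lower and 1 to 4 higher with 1 array left out. A second quantile normalization gave 14 lower and 5 higher, and 4 were higher after loess and with the mean of probe sets. The 2 higher pathway genes became 1 with median centring and with the rank sum test, and 0 with either filter. Over all probe sets, 19318 were higher in the deposited values, 10282 after quantile normalization, 9911 after loess, 7723 with the filter at the median and 1575 at a mean of 6. The split of all calls was 14758 lower, 16492 lower and 13032 higher with median centring, 10111 lower after quantile normalization and 11819 lower after loess. Changes of sign that passed on at least 1 side were HLA-E 200905_x_at (0.65 after quantile normalization, 0.62 after loess), PSME1 (0.11 and 0.084) and NFYA (0.29 with the mean of probe sets). Of the 13 members that did not pass, 8 others also changed sign under some setting without passing, as ERAP1 214012_at (-0.28) and TAPBP 210294_at (-0.15) did after loess and TAP1 (-0.054) without microvesicles replicate 3. The median change of all probe sets was 0.27, 0.11 with centring, 0.12 after quantile normalization and 0.026 after loess. With 3′ minus middle control probe sets ACTB differed by 0.29 (adjusted p = 0.0238, down from 0.73) and GAPDH by 0.054 (adjusted p = 0.214), and with 1 array left out ACTB by 0.60 to 0.83, GAPDH by 0.12 to 0.20 and the array median by 0.15 to 0.17. Filters drop dim probe sets, and the cause of the other changes was not tested. The replicate numbers were not taken to pair the arrays: deviations of same-numbered arrays correlated at -0.025 to 0.11, though 4 of 5 cell arrays correlated best with their own number, a hint from the data. With the replicate block 9 members were lower, and HLA-B 209140_x_at, 211911_x_at and HLA-C 214459_x_at did not pass (limma adjusted p = 0.0637, 0.0721 and 0.0556). Values below the array median are not known to exceed background, which limits, in 1 or both groups, readings of HLA-C, TAP2, TAPBP 210294_at, ERAP1, B2M 232311_at and CALR 214315_x_at and 200935_at.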

Other observations

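MHC class II genes, which present peptides from outside the cell and are low in erythroid cells, were read at low values and were higher in microvesicles for several members. HLA-DRA, the alpha chain of the DR molecule, read 3.13, 3.26, 3.30, 3.30 and 3.43 in cells and 4.53, 5.73, 4.25, 5.55 and 4.11 in microvesicles. It changed by 1.55 ± 0.29 (limma adjusted p = 0.000561), in 1 of 2 probe sets. CD74, the invariant chain that guides class II assembly, changed by 1.34 ± 0.17 (limma adjusted p = 2.30e-05), in 3 of 3 probe sets, from 4.14 ± 0.19 to 5.48 ± 0.24 (SD, n = 5 each). The peptide exchange gene HLA-DMB changed by 1.17 ± 0.23 and HLA-DPB1 by 1.05 ± 0.20 (limma adjusted p = 0.0008 and 0.000519). CD14, CIITA and CD86 were also higher, with overlapping groups. HLA-DPA1, HLA-DMA and HLA-DOA did not pass, though 2 of 3 probe sets of HLA-DPA1 were higher. The levels of HLA-DRA and HLA-DPB1 in cells lay below the array median and are not known to exceed background. All probe sets at the level of HLA-DRA (a mean of 4 to 5) had a median change of 0.25, and those at the level of HLA-DPB1 (3 to 4) of 0.48.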
